A study of Mus musculus with 12 samples.

Results

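The 7 genes described here, Zfas1, Gas5, Snhg1, Snhg5, Snhg6, Snhg8 and Snhg12, are long noncoding RNA genes that carry small nucleolar RNAs (snoRNAs) in their introns. They are 7 of the 55414 genes in a count table of 12 RNA sequencing libraries, found by their GENCODE symbols, and all 7 were among the 13057 genes that passed the filter on low counts. They were selected as a set on values measured in these same libraries, and which comparison served is not recorded, so every difference between groups for these 7 genes is given below as a description, without a p-value. The libraries were made from crypt cells of the small intestine of naive C57BL/6J mice, sorted into Paneth cells (CD24+, cKIT+ cells of medium to high side scatter) and non-Paneth cells. Neither the labels nor the methods state the gate of the non-Paneth cells. Each fraction came from mice with an intact glucocorticoid receptor (WT) and from GRvillinKO mice (GRKO), in which the receptor gene Nr3c1 is deleted in villin-expressing cells, the intestinal epithelium. This gave 4 groups of 3 libraries: WT Paneth, GRKO Paneth, WT non-Paneth and GRKO non-Paneth. The labels do not say whether a library is 1 mouse or a pool, so the spread between libraries may be in part technical, and they give no age.

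SnoRNAs guide chemical modification of ribosomal RNA. Those with C and D boxes guide the methylation of ribose, and those with H and ACA boxes guide the conversion of uridine to pseudouridine. In mammals most are cut from introns after splicing. In a gene such as Gas5 the spliced exons hold no long reading frame. The first bases of these host RNAs often form a run of pyrimidines, the signal that ties the translation of ribosomal protein mRNAs to growth, and the spliced RNA is translated for a short stretch and destroyed by nonsense-mediated decay. The level of the spliced RNA therefore reports transcription and decay together, and a count of spliced reads is not a count of the snoRNAs. Gas5 was named for its accumulation in growth-arrested cells. Its RNA can also fold into a hairpin that resembles the DNA element of the glucocorticoid receptor and bind the receptor. Zfas1 was named for its place antisense to the start of Znfx1, and the Snhg genes are numbered small nucleolar RNA host genes.

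In the GENCODE vM39 annotation on GRCm39, the genome build of the deposited counts, Zfas1 (ENSMUSG00000074578) lies at chr2:166903619-166907799 on the plus strand and its canonical transcript has 5 exons. Gas5 (ENSMUSG00000053332) lies at chr1:160861793-160866118 on the plus strand with 11 exons. Snhg1 spans chr19:8700319-8703812 on the plus strand, Snhg5 chr9:88377321-88405615 on the minus strand and Snhg6 chr1:9926809-10014504 on the minus strand. Snhg8 lies at chr3:123301192-123302578 on the minus strand and Snhg12 at chr4:132035905-132038762 on the plus strand. Together they hold 30 annotated snoRNA genes, 10 in Gas5, 8 in Snhg1, 5 in Snhg12, 3 in Zfas1, 2 in Snhg5 and 1 each in Snhg6 and Snhg8. Of these 30, 2 are second annotations of a snoRNA already counted, Snord80 and Snora16a. An intron of the canonical transcript held 25 of the 30.

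The snoRNAs below were chosen to show what each host carries and which of them had any count. They are read from the genome in the direction of the host, with the C box (TGATGA) and the D box (CTGA) in capitals. The 3 snoRNAs of Zfas1 belong to the SNORD12 family, and the second, Gm23201 at chr2:166906918-166907006 on the plus strand, is the one with counts.
Gm25878: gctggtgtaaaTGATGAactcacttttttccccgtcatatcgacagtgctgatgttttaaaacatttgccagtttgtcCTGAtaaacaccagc
Gm23201: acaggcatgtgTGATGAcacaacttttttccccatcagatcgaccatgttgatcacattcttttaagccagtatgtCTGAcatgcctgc
Snord12: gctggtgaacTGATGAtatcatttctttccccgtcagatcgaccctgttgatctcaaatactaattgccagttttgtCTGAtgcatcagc
Snord87 in Snhg6 (chr1:10012688-10012774, minus strand) is the other snoRNA with counts, and Snord47 (chr1:160865652-160865728, plus strand) is shown as an example from Gas5.
Snord87: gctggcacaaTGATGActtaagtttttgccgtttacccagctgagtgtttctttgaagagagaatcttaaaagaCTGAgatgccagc
Snord47: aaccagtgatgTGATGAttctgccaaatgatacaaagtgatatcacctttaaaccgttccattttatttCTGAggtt
Snhg5 carries a pair of snoRNAs of 72 bases that differ at 1 base, given by the substitution C50A from Snord50a to Snord50b, counted from 1 at the 5′ end, which shows why reads of the pair could hardly be assigned to one copy.
Snord50a: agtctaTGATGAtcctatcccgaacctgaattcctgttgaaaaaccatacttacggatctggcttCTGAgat
Snord50b: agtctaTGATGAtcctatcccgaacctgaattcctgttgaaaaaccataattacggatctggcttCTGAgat
Snhg8 carries Snora24 (chr3:123301586-123301715, minus strand), an H/ACA snoRNA, with the ACA that stands 3 bases before its 3′ end in capitals.
Snora24: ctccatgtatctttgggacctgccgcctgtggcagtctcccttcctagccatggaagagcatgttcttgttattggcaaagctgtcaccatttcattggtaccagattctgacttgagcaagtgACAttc
Of the 30 annotated sequences, of 60 to 137 bases, 21 had both a TGATGA and a CTGA within 20 bases of their ends, and 4 had neither and ended with an ACA followed by 3 bases.

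Total counts ran from 11126297 to 15910292 a library. Nr3c1, the deleted gene, ranged over 4.73 to 12.1 CPM (counts per 1000000 counts of the library) in Paneth libraries labelled GRKO, against 33.0 to 41.1 CPM in those labelled WT. Among non-Paneth libraries it ranged over 19.6 to 36.2 CPM with the GRKO label and 135 to 160 CPM with the WT label. Paneth genes dominated the Paneth libraries: a list of 6 markers took 345600 to 427500 CPM there and 435.1 to 1674 in the non-Paneth libraries. One library stands apart for the 7 host genes. WT Paneth replicate 1 held 443.5 CPM of their summed counts against 180.1 and 200.3 in the other WT Paneth libraries. Its mitochondrial share was 2.48% against 1.26% and 1.19%, and long noncoding RNA genes took 0.305% of its counts against 0.195% and 0.192%. Both shares also moved with genotype. The 3 GRKO Paneth libraries had mitochondrial shares of 0.779% to 1.08% and noncoding shares of 0.156% to 0.184%, all below the 3 WT Paneth libraries. The noncoding share includes the counts of the 7 genes themselves, so its order by genotype is not independent of theirs. A list of 4 stem cell markers, all detected in every library, summed to 5012 to 6502 CPM in WT Paneth libraries, with the highest sum in replicate 1, and to 3057 to 4359 CPM in GRKO Paneth libraries. Most of that sum was Olfm4, at 4740 to 6170 against 2780 to 4050 CPM, and the other 3 markers, Lgr5, Ascl2 and Smoc2, overlapped between the genotypes. Of 5 immune markers 3 or 4 were detected in a Paneth library, and their sum, nearly all of it Cd74, was 647.2 to 691.9 CPM in WT and 143 to 558.9 CPM in GRKO libraries, with Cd3e and Cd79a at or near 0. The sum of 4 tuft cell markers was 131 to 330.7 CPM in WT and 317.7 to 873.3 CPM in GRKO Paneth libraries. A list of 6 enterocyte markers summed to 1041 CPM in WT Paneth replicate 2 and to 135.5 to 247.5 CPM in the other Paneth libraries. The part of these values in the differences below was not tested. The fold changes of the 7 genes that rest on WT Paneth replicate 1 are given with and without it. In bulk RNA, less RNA per cell and fewer cells of a type cannot be told apart.

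The fitted log2 fold changes, by edgeR, use TMM scaling, which sets libraries level by the bulk of their genes. That matters here because a few Paneth mRNAs take so large a share of the Paneth libraries that, by library totals alone, the median of all genes tested was lower in Paneth than in non-Paneth libraries by -0.68 (log2) in WT and by -1.05 in GRKO mice, and higher in GRKO than in WT non-Paneth libraries by 0.31. Each fold change is a log2 value with its standard error (SE).

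**Figure D1:**
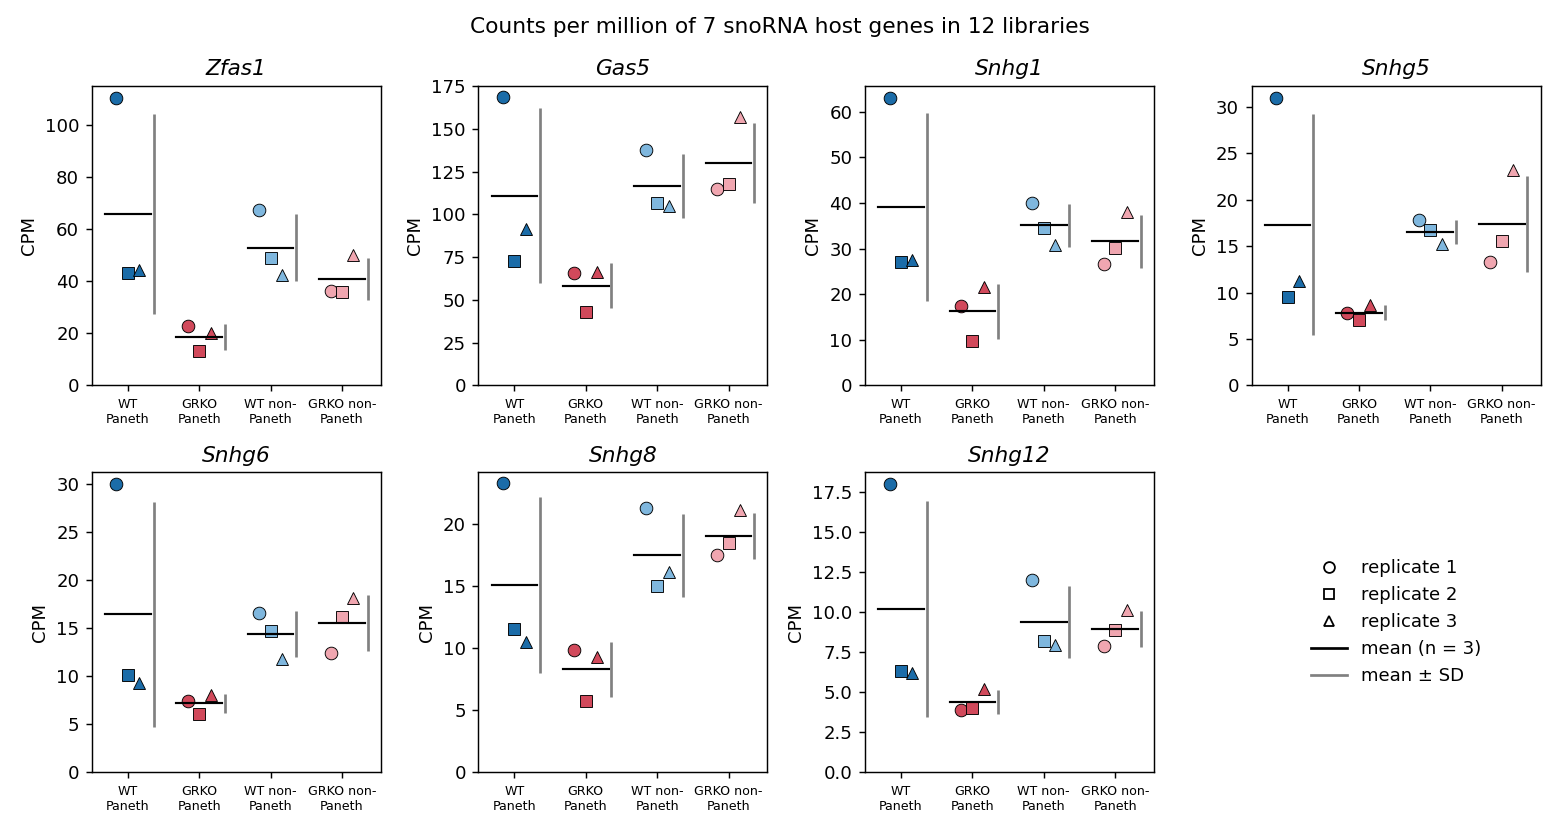
CPM (vertical axis, from 0) of each of the 7 genes in the 12 libraries by group, with 1 point a library, a line at the mean of the 3 libraries and a bar of 1 SD either side. WT Paneth replicate 1 is the highest point of its group for every gene, and the 3 GRKO Paneth libraries lie below the 3 WT Paneth libraries for every gene.

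With the receptor deleted, the 7 hosts stood lower in Paneth cells, Zfas1 most. The question of this comparison is what loss of the glucocorticoid receptor does in sorted Paneth cells. Zfas1 was counted at 110, 42.9 and 44.3 CPM in WT Paneth replicates 1 to 3. It was counted at 22.9, 13.2 and 19.9 CPM in the GRKO Paneth replicates. The groups lay well apart, at 42.9 CPM in the lowest WT library and 22.9 CPM in the highest GRKO library. The fitted log2 fold change was -1.77 (SE 0.37), 3.40-fold lower. Without WT Paneth replicate 1 it was -1.29, and without GRKO Paneth replicate 2, the lowest library, it was -1.52.

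Gas5, the most abundant of the 7, was counted at 169, 72.6 and 91.3 CPM in WT Paneth and at 65.9, 43.2 and 66.2 CPM in GRKO Paneth libraries. The groups did not overlap, but the nearest libraries, at 66.2 and 72.6 CPM, were close. The fitted log2 fold change was -0.88 (SE 0.26), and -0.55 without WT Paneth replicate 1.

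Snhg1, host of 8 snoRNAs, stood at 63.0, 27.0 and 27.4 CPM in WT Paneth and 17.5, 9.67 and 21.5 CPM in GRKO Paneth libraries. Its log2 fold change was -1.24 (SE 0.34), and -0.82 without WT Paneth replicate 1. Snhg12, the least abundant and the host of H/ACA snoRNAs and Snord99, stood at 18.0, 6.33 and 6.20 CPM against 3.84, 4.01 and 5.21 CPM, with a log2 fold change of -1.21 (SE 0.32), or -0.62 without that library. For both genes the 3 GRKO libraries lay below all 3 WT libraries.

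Snhg5, host of the Snord50 pair, gave 31.0, 9.57 and 11.3 CPM in WT Paneth and 7.75, 7.09 and 8.70 CPM in GRKO Paneth libraries. Snhg6, host of Snord87, gave 30.0, 10.1 and 9.26 CPM against 7.43, 6.09 and 8.03 CPM. Snhg8, host of Snora24, gave 23.3, 11.5 and 10.5 CPM against 9.83, 5.73 and 9.30 CPM. In these 3 genes the order of the groups held in every library, but WT replicates 2 and 3 were only just above the highest GRKO library. Their log2 fold changes were -1.10 (SE 0.34) for Snhg5, -1.16 (SE 0.35) for Snhg6 and -0.84 (SE 0.28) for Snhg8. Without WT Paneth replicate 1 they were -0.49, -0.52 and -0.49.

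Over the 7 genes the median log2 fold change was -1.16, beside 0.03 over all genes tested, and without WT Paneth replicate 1 it was -0.55, beside 0.03. Because the genes may have been chosen on this comparison, nothing is read from the counts that follow. The quasi-likelihood test of edgeR placed 1 of the 7, Zfas1, past an adjusted p of 0.05 in the lower direction, where 1.52% of all genes tested passed that way. DESeq2 placed all 7 there, where it called 5.27% of the genes it tested lower. The edgeR calls of this comparison sit at the threshold. With 1 library left out of the fit, no member was called in 10 of 12 fits, 3 were called when GRKO Paneth replicate 1 was left out, and 6 when WT Paneth replicate 3 was. On CPM the GRKO libraries lay below all WT libraries for 7 of the 7, against 9.99% of all genes. On TMM-scaled CPM this held for 6, against 10.2%, the exception being Snhg8. Leaving a library out of one group cannot make the groups overlap, so these counts were bound to hold without WT Paneth replicate 1, when 11.6% and 14.3% of all genes did not overlap in this direction.

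**Figure D2:**
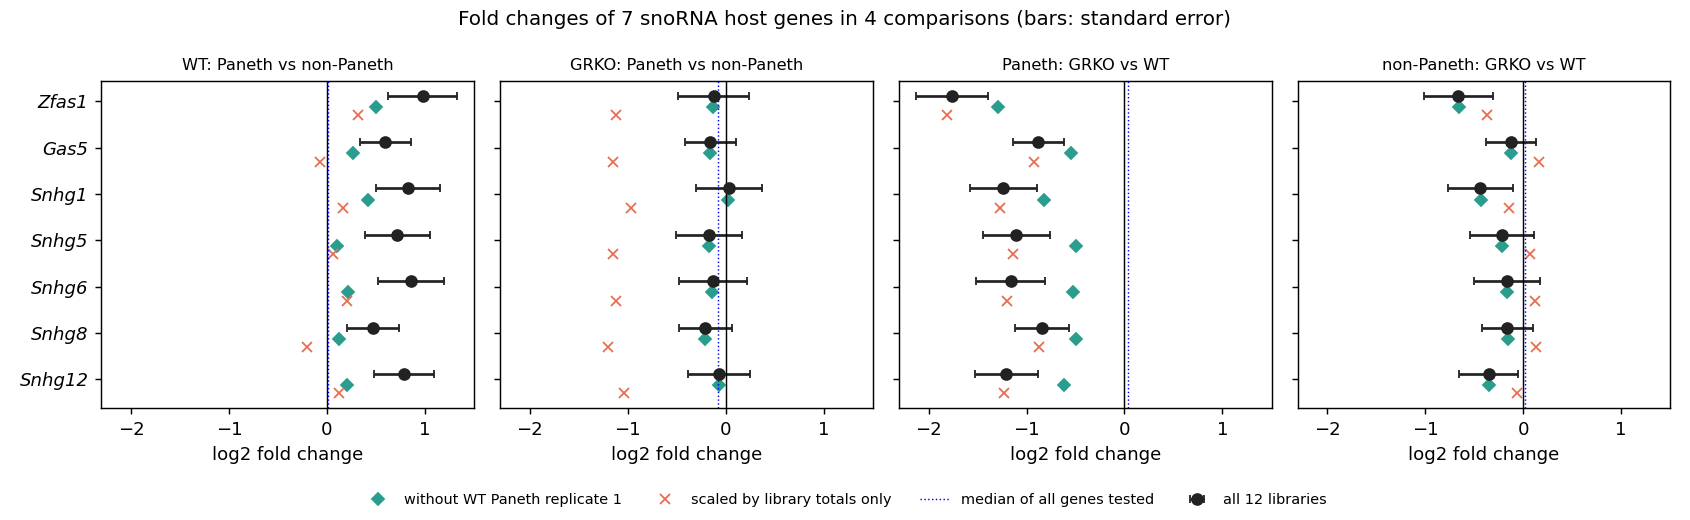
Log2 fold change (horizontal axis) of each gene in 4 comparisons, as a black point with a bar of 1 standard error, with green diamonds for the fit without WT Paneth replicate 1 and orange crosses for scaling by library totals alone. In Paneth cells the GRKO values lie below 0 under all 3 treatments of the data, while the comparisons of fractions shift with the scaling, which moves the median of all genes too.

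With the same deletion the non-Paneth fraction showed smaller differences in the 7 genes. The 2 non-Paneth groups differed in much else. Of 6 enterocyte markers, all detected, the sum was 23620 to 27150 CPM in WT and 5479 to 6974 CPM in GRKO libraries. The sum of 7 proliferation markers went the other way, from 987.8 to 1171 CPM in WT to 2162 to 2234 CPM in GRKO libraries, as did that of 4 tuft cell markers, from at most 10.5 CPM in any WT library to 92.8 to 369.4 CPM in GRKO libraries. The mitochondrial share was 6.01% to 6.81% in WT and 2.85% to 3.04% in GRKO libraries. The part of these values in the differences of this fraction was not tested. Zfas1 stood at 67.2, 48.7 and 42.4 CPM in WT non-Paneth and at 36.2, 35.8 and 49.9 CPM in GRKO non-Paneth libraries. The groups overlapped on CPM through GRKO replicate 3, and did not overlap on TMM-scaled CPM. Its log2 fold change was -0.66 (SE 0.35), or 1.58-fold lower, and -0.38 by library totals. Gas5 stood at 138, 107 and 105 CPM in WT non-Paneth and 115, 118 and 157 CPM in GRKO non-Paneth libraries, with a log2 fold change of -0.13 (SE 0.26), which turned to 0.16 by library totals. The 2 Gas5 groups overlapped on both scales.

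The other 5 hosts lay close together in the non-Paneth groups. Snhg1 averaged 35.1 ± 4.67 CPM (SD, n = 3) in WT and 31.6 ± 5.86 CPM in GRKO libraries. Snhg5 averaged 16.6 ± 1.28 and 17.4 ± 5.20 CPM, and Snhg6 14.4 ± 2.43 and 15.6 ± 2.94 CPM. Snhg8 averaged 17.5 ± 3.32 and 19.0 ± 1.85 CPM and Snhg12, the lowest, 9.39 ± 2.29 and 8.96 ± 1.12 CPM. The libraries of the 2 genotypes overlapped for all 5. Their log2 fold changes ran from -0.44 (SE 0.33) for Snhg1 to -0.16 (SE 0.26) for Snhg8. All 7 genes had a negative value on TMM scaling, with a median of -0.22 beside 0.02 over all genes, while 4 of the 7 were positive by library totals, where the median of all genes was itself 0.31. Relative to the median of all genes the 7 stood at -0.24 on either scaling. None of the 7 passed the test in this comparison, where 37.3% of all genes did, and Zfas1 was the only member whose GRKO libraries lay below all WT libraries on TMM-scaled CPM, against 27.5% of all genes.

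The deletion was thus accompanied by a larger negative value in Paneth than in non-Paneth cells for each of the 7. The difference of the 2 fold changes (interaction) ran from -1.10 (SE 0.50) for Zfas1 to -0.68 (SE 0.38) for Snhg8, with Gas5 at -0.75 (SE 0.37) and a median of -0.85, beside -0.01 over all genes. None of the 7 passed the interaction test, which 18.7% of all genes passed. Without WT Paneth replicate 1 the median was -0.36, and Zfas1 stood at -0.63 and Gas5 at -0.42.

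Between fractions of WT mice, the 7 genes had positive values for Paneth over non-Paneth cells on TMM scaling. The log2 fold change was 0.98 (SE 0.35) for Zfas1, 0.86 (SE 0.34) for Snhg6, 0.83 (SE 0.33) for Snhg1, 0.79 (SE 0.30) for Snhg12, 0.72 (SE 0.33) for Snhg5, 0.60 (SE 0.26) for Gas5 and 0.47 (SE 0.27) for Snhg8. On CPM, though, the libraries of the 2 fractions overlapped for all 7, and 5 of the 7 stayed positive by library totals. The median of the 7 was 0.79 on TMM scaling and 0.12 by library totals, which is 0.78 and 0.81 above the median of all genes on the same scale. The test placed 2 of the 7, Zfas1 and Snhg12, past the threshold as higher in Paneth cells, where 24.0% of all genes passed that way. Zfas1, Snhg1 and Snhg5 did not overlap between fractions on TMM-scaled CPM, against 27.6% of all genes. Without WT Paneth replicate 1 the median was 0.22, the fitted value of Zfas1 was 0.51, and none was called. The WT libraries of the same number deviated together across fractions, and with the replicate number as a block 5 of the 7 were called.

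In GRKO mice the 2 fractions held the hosts at nearly the same TMM-scaled level. The log2 fold changes for Paneth over non-Paneth ran from -0.21 (SE 0.27) for Snhg8 to 0.03 (SE 0.34) for Snhg1, with Zfas1 at -0.12 (SE 0.36) and Gas5 at -0.16 (SE 0.26). Without GRKO Paneth replicate 2 the median went from -0.13 to 0.05. None of the 7 was called, where 39.2% of all genes were. On CPM the Paneth libraries lay below all non-Paneth libraries for 7 of the 7, as for 78.0% of all genes, and by library totals the median was -1.12, beside -1.05 over all genes.

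The ratio of 2 hosts within a library does not depend on scaling. Zfas1 had 0.65, 0.591 and 0.485 counts for each Gas5 count in WT Paneth replicates 1 to 3, and 0.487, 0.456 and 0.405 in WT non-Paneth replicates. With the receptor deleted it had 0.348, 0.305 and 0.300 in Paneth cells and 0.314, 0.302 and 0.318 in the non-Paneth cells. All 6 GRKO libraries lay below all 6 WT libraries, with 0.348 and 0.405 as the nearest values. The mean ratio of WT Paneth libraries was 1.81-fold that of GRKO Paneth, or 1.69-fold without replicate 1, and the mean of WT non-Paneth libraries was 1.44-fold that of GRKO non-Paneth libraries. As a share of the counts of the 7 genes, Zfas1 took 18.5% to 24.7% in WT and 14.3% to 17.0% in GRKO libraries, and Gas5 took 38.0% to 45.7% in WT and 47.7% to 50.3% in GRKO libraries. The shares of the other 5 overlapped between genotypes. Shares add up to the whole, so a lower share of Zfas1 by itself raises those of the others. The ratios of Gas5 to each of the other 5 hosts overlapped between genotypes. Of the 21 ratios between 2 of the 7 genes, 4 separated all GRKO from all WT libraries, where 2.07% of the ratios between any 2 of 12480 tested genes with a count in every library did. Zfas1 was in all 4, with Gas5, Snhg1, Snhg6 and Snhg8 as its partners, so they are not 4 separate observations, and its ratio to 25.9% of the 12479 other genes was lower in all GRKO libraries. Within the Paneth fraction 7 of the 21 ratios separated the genotypes, against 22.6% of the ratios between any 2 genes. They were the 6 with Zfas1, which was also lower against 89.4% of all other genes, and 1 of the 15 without it. Within the non-Paneth fraction 12 of the 21 did, against 53.4% of the ratios between any 2 genes, namely the 6 with Zfas1, lower there against 49.9% of all other genes, and 6 of the 15 without it.

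**Figure D3:**
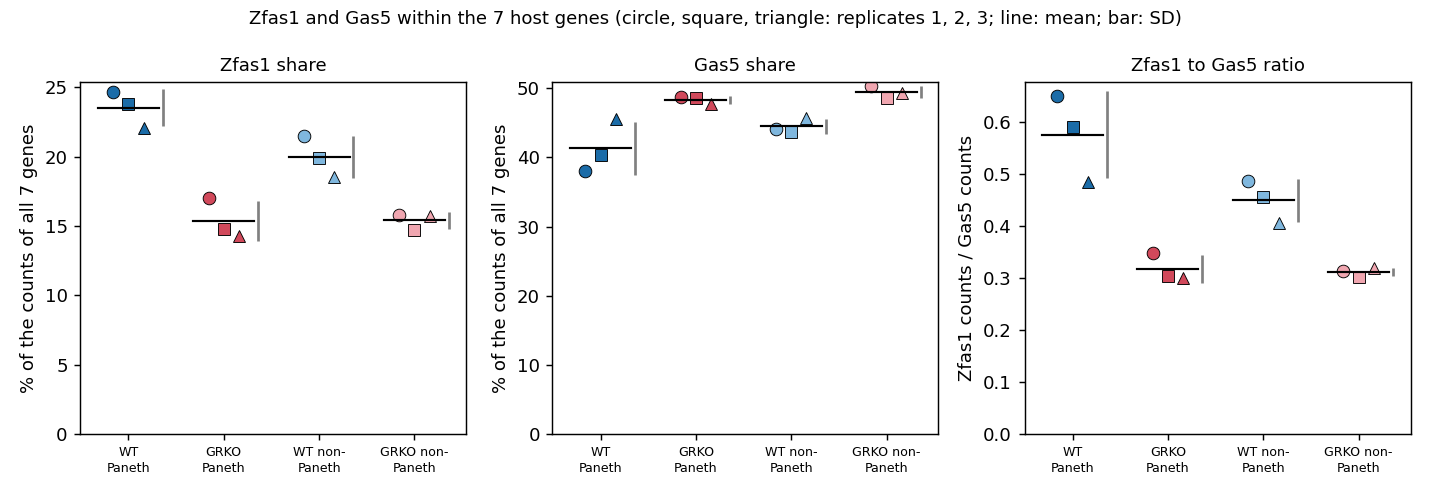
Share of Zfas1 (left) and of Gas5 (middle) in the summed counts of the 7 genes, in percent, and the ratio of Zfas1 to Gas5 counts (right), with 1 point a library, a line at the mean and a bar of 1 SD either side. The Zfas1 share is at or above 18.5% in every WT library and at or below 17.0% in every GRKO library, and the ratio does not overlap between genotypes.

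Levels of different genes were compared per length, as TPM on the length of the canonical spliced transcript. These values rank genes within a group and are not compared between fractions. On CPM, Gas5 averaged 111 in WT Paneth and 116 in WT non-Paneth libraries. In WT non-Paneth libraries the order was Gas5 (607 ± 80.7, SD, n = 3), Zfas1 (391 ± 83.6), Snhg1 (108 ± 11), Snhg8 (62.1 ± 10.4), Snhg5 (39.1 ± 1.70), Snhg6 (22.2 ± 3.04) and Snhg12 (11.5 ± 2.48). The gaps between neighbours in this order were wider than 1 SD of either. In WT Paneth libraries the SDs were wide, with Gas5 at 172 ± 80.8 and Zfas1 at 144 ± 85.5, since replicate 1 was the highest for every gene. Within each of these 3 libraries the order was the same as in WT non-Paneth libraries, with Gas5 and Zfas1 at 263 and 243, at 109 and 91.6 and at 143 and 98.8. Snhg8 came to 24.7, 11.8 and 11.2, Snhg5 to 21.8, 6.48 and 8.01 and Snhg6 to 13.9, 4.51 and 4.31 in replicates 1 to 3. In GRKO Paneth libraries Gas5 (94.5 ± 19.4) stood well above Zfas1 (42.7 ± 9.06). The order depends on the length used, since Snhg12 has an unspliced canonical transcript of 2842 bases and Zfas1 one of 470. On the length of all annotated exons joined, Snhg8 (44.0 ± 7.39) came before Snhg1 (35 ± 3.5) in WT non-Paneth libraries.

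The 7 genes varied together from library to library. Over the 12 libraries the Pearson correlation of log2 TMM-scaled CPM between 2 of them ran from 0.875 to 0.968, with a median of 0.927 over 21 pairs, and after taking out the group means it ran from 0.780 to 0.973. These ranges, without WT Paneth replicate 1, were 0.753 to 0.933 and 0.620 to 0.954 over 11 libraries. The libraries share depth, scaling and groups, so these values describe the set and carry no test. Of 8853 other genes with at least 10 CPM on average, those most like Zfas1 were 2410006H16Rik (0.968), Ndufa4 (0.968), 1110038B12Rik (0.965), Epb41l4aos (0.948) and Fau (0.947). Those most like Gas5 were Epb41l4aos (0.955), 1110038B12Rik (0.954), Slc7a6os (0.944), 2410006H16Rik (0.940) and Metap1d (0.928). The 3 long noncoding RNA genes named for both hold snoRNAs too in the annotation: 3 in 2410006H16Rik, 2 in 1110038B12Rik and 1 in Epb41l4aos.

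The snoRNAs themselves were almost absent from the counts. Of the 30 rows, 28 were at 0 in all 12 libraries. Gm23201 in Zfas1 had 75 counts in all: in Paneth cells 11, 0 and 2 in WT and 0, 1 and 4 in GRKO replicates, and outside them 16, 10 and 9 in WT and 5, 8 and 9 in GRKO replicates. Snord87 had 8 counts in all and at most 3 in a library. No snoRNA row was tested. All 30, those with counts included, lie wholly within the joined exons of all annotated transcripts of their host. That holds in GENCODE vM39, which is not the annotation named for the deposited counts. How reads shared by a snoRNA and its host were assigned was not tested, and a row at 0 is not read here as a level of the snoRNA.

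Zfas1, Gas5, Snhg1 and Snhg6 overlap or abut protein-coding genes, which were not chosen with them, and those that passed the filter can be tested. Znfx1, whose start Zfas1 faces, had a log2 fold change of 0.11 (SE 0.18, adjusted p = 0.71 by edgeR) between GRKO and WT Paneth cells. Slc3a2, an amino acid transporter subunit that overlaps 743 bases of Snhg1 exons on the other strand, had 0.16 (SE 0.16, adjusted p = 0.551). Zbtb37, beside Gas5, had -0.12 (SE 0.30, adjusted p = 0.826). Sgk3, whose span overlaps that of Snhg6 with no shared exon bases, had -0.06 (SE 0.27, adjusted p = 0.908). None of these 4 passed the test there. Mcmdc2, which overlaps 542 bases of Snhg6 exons on the other strand, was not among the genes tested. In the non-Paneth fraction Znfx1 fell by 0.80 (SE 0.17, adjusted p = 0.0017, edgeR), and Slc3a2 fell by 0.85 (SE 0.16, adjusted p = 8.54e-04, edgeR). The library kit keeps strand, but which strand was counted is not stated, and 21.3% of the exon length of Snhg1, 16.9% of that of Gas5, 11.6% of that of Snhg5, 9.4% of that of Snhg6 and 5.2% of that of Zfas1 lie opposite another gene's exons.

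Other genes of the snoRNA pathway, from lists of known hosts and factors, were tested as well. Of 14 other long noncoding RNA hosts, 13 were in the table and 11 passed the filter. In Paneth cells all 11 had a negative value with the deletion, with a median of -1.15, or -0.62 without WT Paneth replicate 1, and 3 fell: Epb41l4aos by 1.4 (SE 0.31, adjusted p = 0.0448), Snhg4 by 1.30 (SE 0.30, adjusted p = 0.0448) and Snhg15 by 1.07 (SE 0.27, adjusted p = 0.0478), all by edgeR. Epb41l4aos averaged 14.4 ± 8.28 CPM (SD, n = 3) in WT Paneth and 5.29 ± 1.54 CPM in GRKO Paneth libraries, with 23.6 CPM in WT replicate 1. Without WT Paneth replicate 1 none of the 3 passed edgeR's test. In the non-Paneth fraction all 11 again had negative values, with a median of -0.36, and 1 fell, where 19.8% of all genes did. It was Snhg14, which fell by 1.95 (SE 0.68, adjusted p = 0.0369, edgeR), a gene of at most 2.48 CPM in any library. Snhg18 lay nearer 0 than the Paneth median of the 11, with a log2 fold change of -0.33 (SE 0.17, adjusted p = 0.222, edgeR). It was counted at 41.9, 33.4 and 28.9 CPM in WT Paneth and 30.0, 25.6 and 27.4 CPM in GRKO Paneth libraries. On CPM its 2 Paneth groups overlapped, as did those of Snhg14, Snhg16, Snhg17 and Dancr. With 1 library left out, Snhg16 and Snhg17 came to -0.33 and -0.29 at their weakest. Snhg18 was also the host with the largest rise in Paneth over non-Paneth cells of WT mice among the 4 of 11 that passed, by 1.89 (SE 0.17, adjusted p = 3.44e-07, edgeR).

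Protein-coding hosts, mostly genes for ribosomal proteins and translation factors with snoRNAs in their introns, moved less. Of 33, 13 fell and none rose in GRKO against WT Paneth cells, with a median of -0.43, or -0.38 without WT Paneth replicate 1. Those with the lowest adjusted p were Rpl13a, down by 0.84 (SE 0.16, adjusted p = 0.0409, edgeR), Rpl3 at -0.61 (SE 0.13, adjusted p = 0.0438), the elongation factor gene Eef1b2 at -0.65 (SE 0.15, adjusted p = 0.0448) and Rps20 at -0.65 (SE 0.15, adjusted p = 0.0448). Of 79 cytosolic ribosomal protein genes tested, 42 fell and none rose, with a median of -0.65, or -0.51 without that library. Without WT Paneth replicate 1 the 1 gene of all that edgeR called in this comparison was Mt1, a metallothionein gene outside these lists. In the non-Paneth fraction 10 of the 33 protein-coding hosts rose, where 17.5% of all genes did, and 1, Eif4a2, fell by 0.72 (SE 0.12, adjusted p = 3.59e-04, edgeR), with a median of 0.18.

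The proteins that bind and assemble snoRNAs differed little between genotypes in Paneth cells and more in the non-Paneth fraction. Of the 19 genes, Nop56, Nop58 and Dkc1 are also listed as protein-coding hosts. None of the 19 passed the test in GRKO against WT Paneth cells, where 15 had a negative value and the median was -0.13. In the non-Paneth fraction 13 rose, against 17.5% of all genes, and none fell, with a median of 0.59, in the same libraries in which the sum of the proliferation markers was higher and that of the enterocyte markers lower. Among the 13 were Naf1, an H/ACA assembly factor, by 1.08 (SE 0.15, adjusted p = 1.02e-04, edgeR) and Nolc1, a nucleolar chaperone, by 0.97 (SE 0.11, adjusted p = 2.37e-05, edgeR). In the interaction all 19 had a negative value, with a median of -0.75, the same as that of the other long noncoding RNA hosts. There 13 of the 19 passed as lower, where 7.28% of all genes did. Of 18 factors of nonsense-mediated decay, the pathway that removes spliced host RNA, none passed the test in Paneth cells (median 0.11), and in the non-Paneth fraction 3 rose (median 0.22), a share near the 17.5% of all genes that rose there, and none fell.

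**Figure D4:**
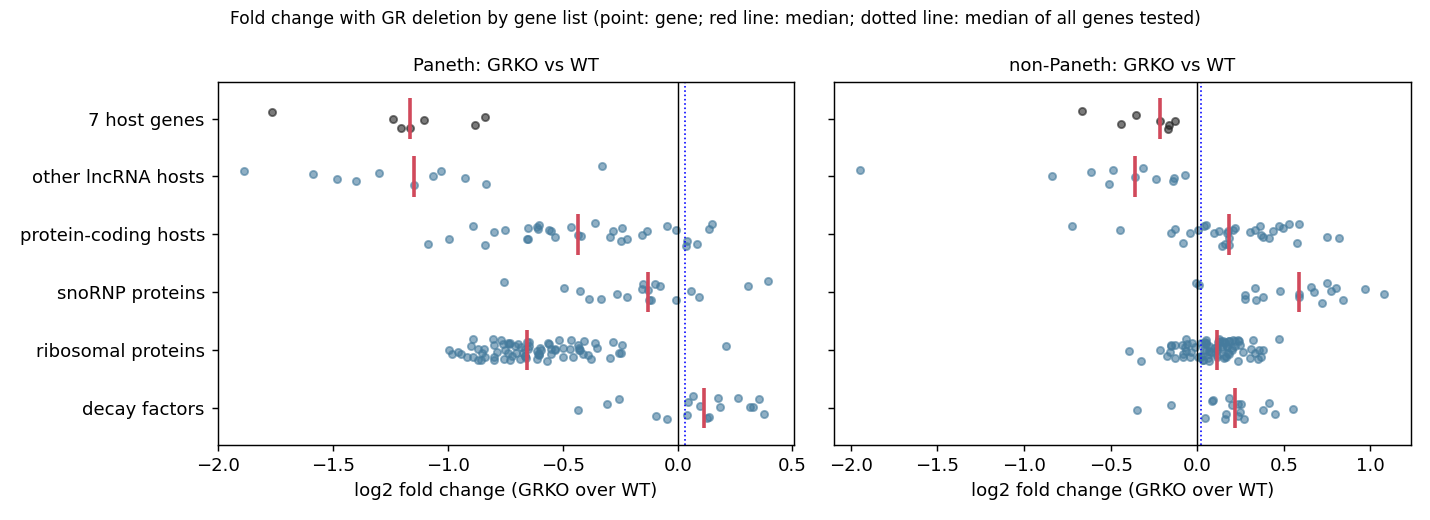
Log2 fold change of GRKO over WT (horizontal axis) for each gene of 6 lists, in Paneth cells (left) and in non-Paneth cells (right), with 1 point a gene, a red line at the median of the list and a dotted line at the median of all genes tested. In Paneth cells the 7 hosts and the other long noncoding RNA hosts have medians of -1.16 and -1.15, while the snoRNA-binding proteins have a median of -0.13.

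The promoters of the 7 hosts were read from 250 bases before to 50 after the start of the canonical transcript. The palindrome of the glucocorticoid response element was in none of the 7, and in none of the 23889 genes with a count, so its exact letters are too strict to describe a set. Either arm of it alone, AGAACA or TGTTCT, was in 1 of the 7, Snhg1, and in 17.1% of all promoters. The E-box CACGTG was in none of the 7 and in 7.82% of all. A run of at least 5 pyrimidines beginning with a C within 5 bases of the start was in 2 of the 7, Snhg5 and Snhg8, and in 18.2% of all. The windows from 20 bases before the annotated start of these 2 and of Gas5, whose run is 1 base shorter, are shown with the run in capitals, Snhg5 at chr9:88404902-88404961 and Snhg8 at chr3:123302539-123302598 on the minus strand and Gas5 at chr1:160861774-160861833 on the plus strand.
Snhg5: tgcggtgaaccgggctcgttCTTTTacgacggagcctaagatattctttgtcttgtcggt
Snhg8: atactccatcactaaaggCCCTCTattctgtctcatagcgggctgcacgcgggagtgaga
Gas5: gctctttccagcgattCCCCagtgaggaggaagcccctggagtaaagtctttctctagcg
The Gas5 run of 4 bases lies wholly before the annotated start, and the Snhg8 run begins 2 bases before it. A match is a description of the letters at the annotated start, and no start was measured here.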

How the data were processed

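Counts per gene were deposited by the authors for 12 libraries (TruSeq stranded kit, single-end reads). Per the submitters' processing notes and the study's methods, reads were trimmed with Trimmomatic 0.39 and mapped with STAR 2.7.10a to mm39, with gene counts taken during alignment from an annotation given as gencode v28. These deposited counts are raw, and none of these sources states the strand counted. RNA kits differ between sources. Groups were taken from the sample titles, since the genotype field follows the cell fraction; Nr3c1 followed the titles.

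Counts were tested with edgeR 4.0.16 (R 4.3.3; quasi-likelihood, TMM, filterByExpr, 1 fit over 4 groups of 3 libraries, 5 contrasts, Benjamini-Hochberg, threshold 0.05). DESeq2 1.42.0 and the other alternatives are given in the closing section. The procedure was tested on simulated data: of genes changed by a log2 fold of 1 between GRKO and WT Paneth libraries, 67.0% were recovered, over 13057 genes. The simulation gave each gene the same spread in both fractions. In the data the SD of deviations from group means was 0.312 to 0.408 in Paneth and 0.227 to 0.286 in non-Paneth libraries. The share recovered in real Paneth libraries may therefore be lower. Gene models are GENCODE vM39 on GRCm39.

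The members, lists and tests were chosen with earlier results of these data known. Named genes were the 7 members, Nr3c1, neighbours, the other noncoding hosts, at most 4 genes a list with the lowest adjusted p past the threshold, and the 5 genes most like Zfas1 and Gas5. One neighbour is not reported here. No library pair was a duplicate. Libraries of the same replicate number deviated together across fractions of WT mice (correlation of deviations 0.229 to 0.349), though the labels do not say that they share mice. Across fractions of GRKO mice the correlation was 0.0129, 0.262 and 0.465 in replicates 1 to 3, above the limit of 0.1 used here in replicates 2 and 3 only. Between genotypes it was at most 0.166.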

Additional observations from a re-analysis of the deposited data

Results flagged for a closer look

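The effect of receptor deletion was compared between the fractions by the interaction test of edgeR. Its value is the log2 fold change of GRKO over WT in Paneth cells minus that in non-Paneth cells, Benjamini-Hochberg adjusted. It called lower 1 of 11 other noncoding hosts, 18 of 33 protein-coding hosts and 13 of 19 snoRNA-binding and assembly proteins, and none higher. Of all genes 7.28% were called lower. At most 4 genes of each list, those with the lowest adjusted p, are named, 8 in all. None of the 7 members was called. The difference was -1.23 (SE 0.41, adjusted p = 0.0486) for the noncoding host Snhg4. Among protein-coding hosts it was -0.84 (SE 0.16, adjusted p = 0.00315) for Rpl23a, -0.72 (SE 0.16, adjusted p = 0.00797) for Rps2 and -0.78 (SE 0.18, adjusted p = 0.00944) for Ncl, which encodes nucleolin. Dkc1, both a host and the H/ACA pseudouridine synthase, stood at -0.90 (SE 0.19, adjusted p = 0.00463). Among the snoRNA-binding and assembly proteins it was -0.85 (SE 0.16, adjusted p = 0.00315) for Nopchap1, -0.85 (SE 0.19, adjusted p = 0.00743) for the methyltransferase gene Fbl and -0.99 (SE 0.23, adjusted p = 0.00834) for Gar1. With the deletion 13 of the 19 rose in non-Paneth cells, where 17.5% of all genes did, and none passed in Paneth cells. Of the 33 protein-coding hosts, 10 rose and 1 fell in non-Paneth cells, and 13 fell in Paneth cells, where 1.52% of all genes did. The interaction test also called lower 51 of 79 cytosolic ribosomal protein genes, 6 of 7 proliferation markers and 4 of 4 stem cell markers. None of these was called higher. Groups of 3 libraries were not tested for outliers.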

How the results depend on the processing

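The sign of each member in GRKO against WT Paneth cells was the same under every alternative run. Counts past the threshold were not. In GRKO against WT Paneth cells edgeR called 420 of all genes, 1 member and 3 of the other noncoding hosts. By library totals these were 2, 0 and 0, with only those groups in the fit 0, 0 and 0, at a false discovery rate of 1% 0, 0 and 0, and with the trend on length and GC removed 254, 0 and 0. At an unadjusted p under 0.05, edgeR counted 3491 genes there. DESeq2 called 1464 genes and 7 members, and edgeR without a filter on low counts called 1780 genes, 7 members and 8 other hosts. With Lyz1 and Defa genes out of the TMM factors, or with at least 10 counts in every library of 1 group, 2 members were called. Leaving out 1 library gave 0 to 1618 genes, 0 to 6 members and 0 to 4 other hosts. The causes of these shifts were not tested.

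Between fractions of WT mice, the count of members (2 of 7) became 0 by library totals, 4 without Lyz1 and Defa genes in the factors, 5 with DESeq2, 6 without a filter, 4 with the filter of 10 counts, 1 with only those groups in the fit and 0 at 1%, and ran from 0 to 5 with 1 library left out. The other hosts (4) became 1 by library totals and 2 at 1%, and ran from 2 to 4. In GRKO mice, library totals gave 10784 genes, 7 members and 8 other hosts. Between genotypes in the non-Paneth fraction, members called became 1 without a filter and 2 with only those groups in the fit. The other hosts (1) became 0 by library totals, 3 without a filter, 2 with only those groups and 0 at 1%, where 3002 genes passed, and ran from 0 to 2. In the interaction, members called became 5 without a filter, and the other hosts (1) became 0 with RLE size factors, 2 by library totals, 0 without Lyz1 and Defa genes, 2 without a filter, 0 with the filter of 10 counts and 0 at 1%, where 955 genes passed. With 1 library left out they ran from 0 to 2, and all genes from 1563 to 2607.

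A block on the replicate number was also fitted, taken within genotype for the comparisons of fractions and the interaction. With it 5 members were called between fractions of WT mice and 2 members in the interaction. Between genotypes in Paneth cells 4 members and 977 genes were called. Libraries of the same number deviated together in every replicate only between WT fractions, and between GRKO fractions in replicates 2 and 3. No other count of calls moved by over 1.5 times under the block. Of 343 fold changes of members under other settings, fits with a library left out not counted, 323 moved by less than 1 SD of the replicates. Of the 20 that moved more, 19 did so by library totals. With 1 library left out 12 of 420 moved more, 9 of them without WT Paneth replicate 1. The counts of non-overlapping libraries, the list medians, the correlations among members and the Zfas1 to Gas5 ratio without WT Paneth replicate 1 were added after seeing the data. Gm23201 and Snord87, with 75 and 8 counts over all libraries, were not tested.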
